A study of Homo sapiens with 9 samples.

Results

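The 9 genes described here encode core subunits of the Polycomb repressive complexes and were taken by name as RNF2 and its closest partners: RNF2 and RING1, BMI1 and PCGF2, CBX2 and CBX8, PHC1 and PHC2, and EZH2. All 9 were found among the 19869 genes of the table for H460-ERT2-RUNX3-K94/171R cells. In the table for the other lines, which lists 24331 genes, 1 of the 9, RNF2, could be identified. RNF2 is of interest in the study as a binding partner of BRD2, a bromodomain protein that RUNX3 contacts at the restriction point, the point in G1 after which a cell no longer needs mitogens to divide. The study followed RNF2, BMI1, EZH2 and EED as proteins, mainly in HEK293 cells after serum, and not as RNA. It also states that oncogenic K-RAS keeps RUNX3 from forming its Polycomb-containing repressor complex in H460 cells, the cells used here. The question addressed here is whether the RNA of the 9 genes moved after RUNX3 was switched on.

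The cells were NCI-H460, a large cell lung cancer line derived from a pleural effusion, in which K-RAS is oncogenic and RUNX3 is inactive. H460-vec carried no RUNX3 transgene and is labelled as RUNX3 inactivation. H460-ERT2-RUNX3 carried an insertion of wild-type RUNX3 fused to ERT2, an estrogen receptor domain that makes the protein inducible by 4-OHT, the active form of tamoxifen. H460-ERT2-RUNX3-K94/171R carried the same fusion without the acetylated lysines through which RUNX3 binds BRD2. All of them were starved of serum for 24 h and harvested at 0 h as the untreated control, or 8 and 16 h after 10% serum and 1 μM 4-OHT. The protocol also names serum alone, but the treatment label of every 8 and 16 h library is TAM. The 3 lines are stable lines, and neither the promoter of the transgene nor the number of clones is given in the sources used here. Serum and the inducer were given together, so their effects within a line cannot be told apart, and H460-vec is the comparison for both without RUNX3. That comparison could be made for RNF2 alone, the only member identified in those lines. The other members could be read only in K94/171R cells, without a control line and without wild-type RUNX3, so for them the question stays unanswered.

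There was 1 library per line and time, 9 in all, so no difference below has a replicate check and no p-value was computed. Values are FPKM (fragments scaled to the length of the transcript and to the size of the library). A change is log2((FPKM + 0.05)/(FPKM at 0 h + 0.05)), and a gene is counted as changed when it is past 2-fold, among genes of FPKM of at least 1 in either library compared. The 2 tables were made separately, and levels were compared only within a table: RBBP4 was listed at 56.6 FPKM in K94/171R cells and at 16.4 in H460-vec cells at 0 h. Between 10961 and 11367 genes per library reached 1 FPKM. The library of H460-ERT2-RUNX3 at 16 h stood apart, with an FPKM sum of 780952 against 554359 to 641519 in the others, and 32.2% of it in the 50 highest genes against 24.9% to 28.4%. Simple epithelial keratins were abundant in K94/171R cells at 0 h (KRT8 at 662 FPKM, KRT18 at 593, KRT19 at 382), while EPCAM was listed at 0, 0.248 and 0.313 FPKM and CDH1, which encodes E-cadherin, at no more than 0.0227. Of the fibroblast markers, COL3A1 was at 5.60 to 8.26 and PDGFRB at 1.91 to 3.20 FPKM and the other 3 stayed below 1. Of the blood and endothelial markers, CD68 was at 47.2 to 56.9 FPKM, CD3E was listed at 0 throughout, PTPRC and VWF were at 0.0284 or less, and PECAM1 was not matched.

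Polycomb proteins keep genes silent through 2 kinds of complex. In Polycomb repressive complex 1 (PRC1), a RING protein, RNF2 or RING1, is the ligase that attaches ubiquitin to histone H2A, and it always pairs with 1 of the PCGF proteins, among them BMI1 and PCGF2. Canonical PRC1 adds a CBX protein, which reads methylated histone H3, and a PHC protein, which links complexes to each other, whereas variant PRC1 holds RYBP or YAF2 in place of the CBX protein. Polycomb repressive complex 2 (PRC2) writes the methyl mark that CBX proteins read, through EZH2 or EZH1 together with EED and SUZ12. EZH2 is known as an E2F target that is expressed more in dividing than in resting cells.

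The promoter of RNF2 is shown because RNF2 is the only member that could be identified in every line. That of EZH2 is shown because its course in K94/171R cells was the one most like that of RNF2 among the members. They are the 250 bases before the transcription start, on the strand of the gene, as given by RefSeq for GRCh38.p14, chr1:185045308-185045557 on the plus strand and chr7:148884292-148884541 on the minus strand. Capitals mark a match to the E2F motif.
RNF2: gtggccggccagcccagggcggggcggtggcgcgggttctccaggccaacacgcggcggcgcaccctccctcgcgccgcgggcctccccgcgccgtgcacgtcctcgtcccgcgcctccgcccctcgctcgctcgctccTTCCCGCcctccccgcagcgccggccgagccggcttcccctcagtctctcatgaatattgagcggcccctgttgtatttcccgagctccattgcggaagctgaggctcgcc
EZH2: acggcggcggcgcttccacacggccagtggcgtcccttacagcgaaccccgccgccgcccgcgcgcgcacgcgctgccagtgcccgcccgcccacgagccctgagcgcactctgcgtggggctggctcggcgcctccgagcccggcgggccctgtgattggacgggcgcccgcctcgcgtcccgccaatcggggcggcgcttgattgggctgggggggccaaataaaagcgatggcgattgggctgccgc
The RUNX motif was searched as TGTGGT and in its other form as TGCGGT. The E2F motif was searched in the form TTCCCGC, in the second form TTCGCGC, in the third form TTGGCGC and in the last form TTGCCGC. Both strands were read, in windows that reach from 250 bases before to 50 after the start. Of the 9 genes, 7 had 11 windows in the table. No window of these 7 genes held the RUNX letters, which are found in 19.6% of all 35116 windows. The RUNX3 site that the study deleted at ARF lies further upstream than such windows reach, and sites at that distance were not searched. The E2F letters, present in 13.0% of all windows, occurred once in the RNF2 window, 111 bases before the start, and once in an EZH2 window, just after the start and beyond the printed bases. No match of one motif overlapped a match of the other, and a match is a description of the sequence, not a site of binding.

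In H460-ERT2-RUNX3 cells RNF2, a ligase of PRC1, was higher at both later times, whereas in H460-vec cells it stayed level. H460-vec had 5.43, 5.46 and 5.34 FPKM at 0, 8 and 16 h. H460-ERT2-RUNX3 had 6.82, 8.53 and 11.7 FPKM. All 3 values of the RUNX3 line were above all 3 of the control line, the untreated one included, and its 16 h library was the highest of the 6. Within the RUNX3 line the log2 change was 0.32 at 8 h (1.25-fold) and 0.78 at 16 h (1.71-fold), against 0.01 and -0.03 in H460-vec. RNF2 was thus past 2-fold in neither line at either time. The share of all genes past 2-fold was 2.02% at 8 h and 3.17% at 16 h in the control line, and 8.2% at 8 h and 41.5% at 16 h in the RUNX3 line.

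**Figure D1:**
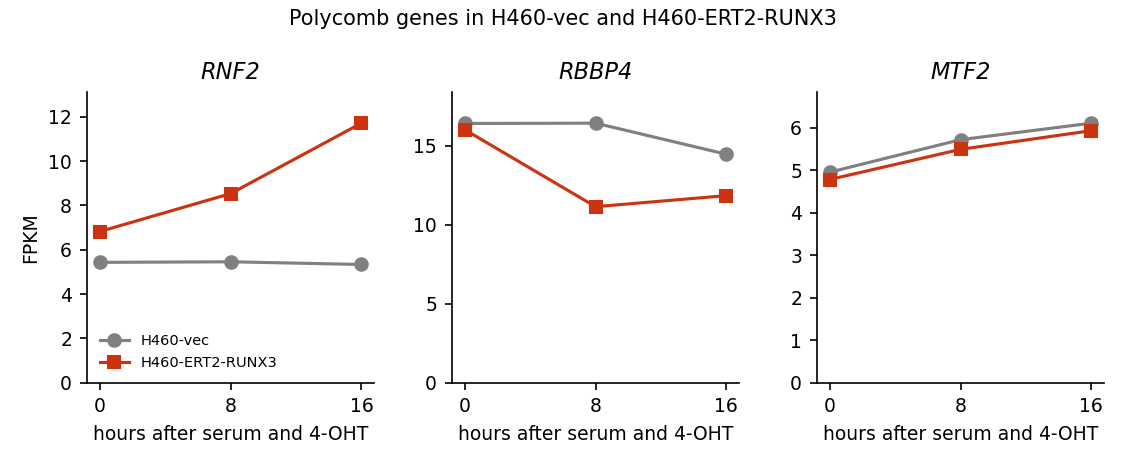
FPKM (vertical axis, linear from 0) of RNF2, RBBP4 and MTF2 at 0, 8 and 16 h after serum and 4-OHT (horizontal axis) in H460-vec (grey circles) and H460-ERT2-RUNX3 (red squares), 1 library per point. RNF2 goes from 6.82 to 11.7 FPKM in the RUNX3 line and stays between 5.34 and 5.46 in H460-vec, RBBP4 is lower at 8 and 16 h in the RUNX3 line, and MTF2 runs together in both lines.

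Between the lines, RNF2 was already higher in H460-ERT2-RUNX3 than in H460-vec before treatment, by 0.33 on the log2 scale, and the difference was 0.64 at 8 h and 1.13 at 16 h (2.18-fold). The last difference is past 2-fold, as were 44.4% of all genes in that comparison. In the same direction 21.1% of all genes were past 2-fold. A difference between the lines at least as high as that of RNF2 was seen in 11.3% of genes at 0 h, 11.4% at 8 h and 18.3% at 16 h. By this measure RNF2 stood out no more after treatment than before it. Subtracting the change in H460-vec left 0.31 at 8 h and 0.80 at 16 h. In the RUNX3 line at 16 h, 25.8% of all genes had a change at least as high as that of RNF2, and the interquartile range of all changes ran from -0.81 to 0.80. The change of RNF2 lay just inside the upper end of that range. At 8 h, when 24.4% of genes were as high, the interquartile range was -0.31 to 0.31 and RNF2 lay just above it.

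The size of the RNF2 change depended on the scale of the 16 h library. When the 6 libraries were brought to the same FPKM sum, every gene in H460-ERT2-RUNX3 shifted by -0.494 at 16 h relative to 0 h, and the median change of all genes with them. RNF2 then stood at 0.14 at 8 h and 0.28 at 16 h, still above 0. Its difference from H460-vec on that scale was 0.43 at 0 h, 0.55 at 8 h and 0.84 at 16 h, no longer past 2-fold. Rescaling to the same median left 0.74 at 16 h. The median change of all genes in this line was already -0.001 as deposited, so this rescaling could move little. Which scale is the right one was not tested.

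**Figure D2:**
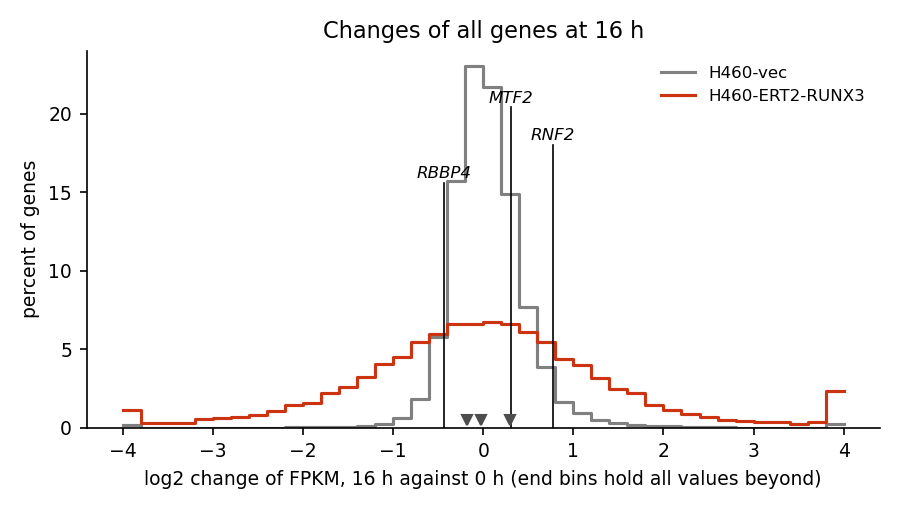
Percent of genes (vertical axis) per bin of log2 change from 0 to 16 h (horizontal axis) in H460-vec (grey line) and H460-ERT2-RUNX3 (red line), for genes of FPKM of at least 1 in either library. Black lines mark RNF2 at 0.78, RBBP4 at -0.43 and MTF2 at 0.31 in the RUNX3 line, grey triangles mark them in H460-vec, and the end bins hold all values beyond. All 3 genes lie inside the broad middle of the red distribution.

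Of the wider Polycomb list of 54 genes, RNF2, RBBP4 and MTF2 could be identified in the table of these lines. The identifiers that the study pairs with symbols, as available here, are those of chromosome 1 genes only, 1144 in all. They do not cover every such gene: PHC2, a member on chromosome 1, is not among them. RBBP4, a histone-binding WD-repeat subunit that PRC2 shares with other complexes, had 16.4, 16.4 and 14.5 FPKM in the control line and 16.0, 11.1 and 11.8 FPKM in the RUNX3 line. It was therefore lower in the RUNX3 line at 8 and 16 h than in any library of H460-vec, by -0.56 and -0.29 on the log2 scale against the control line at the same time. Of all genes, 29.7% differed at least as much between the lines at 8 h, in either direction, and 82.4% at 16 h. MTF2, a Polycomb-like protein that brings PRC2 to CpG islands, had 4.96, 5.72 and 6.11 FPKM in the control line and 4.78, 5.49 and 5.93 in the RUNX3 line. The lines differed by at most -0.06 in MTF2, and the changes at 16 h, 0.30 and 0.31, were alike in both. This likeness was lost with the libraries at the same FPKM sum, where the MTF2 change at 16 h was 0.19 in the control line and -0.18 in the RUNX3 line, and the difference between the lines was -0.32. On that scale the RBBP4 change in the RUNX3 line at 16 h went from -0.43 to -0.93 and its difference from the control line from -0.29 to -0.57.

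Of 508 genes of the 6-library table with a symbol and at least 1 FPKM in all 6 libraries, those with the course most like that of RNF2 were DESI2, PPP2R5A and TIPRL. The measure is the Euclidean distance between log2 levels centred on the mean of each gene, which was 0.189, 0.233 and 0.254 over 6 libraries. TIPRL had 43.1, 43.4 and 48.3 FPKM in the control line and 49.2, 73.8 and 93.2 in the RUNX3 line, and DESI2 had 30.3, 29.8 and 30.6 against 32.9, 46.3 and 62.0. PPP2R5A, a regulatory subunit of protein phosphatase PP2A, had 25.5, 24.1 and 24.0 FPKM against 28.6, 33.9 and 45.5. All 3 lie on chromosome 1, as do all genes that could be compared, and all were highest in the library that stands apart.

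In H460-ERT2-RUNX3-K94/171R cells none of the 9 genes was past 2-fold, or past 1.5-fold, at 8 or 16 h. Their changes lay between -0.36 and 0.15 at 8 h and between -0.35 and 0.29 at 16 h. The background in the same libraries was 3.76% of 11252 genes past 2-fold at 8 h and 2.74% of 11325 at 16 h, and 14.4% and 9.12% past 1.5-fold. At 8 h 5 members were higher and 4 lower, with a median change of 0.06 against 0.01 over all genes, and at 16 h 2 were higher and 7 lower, with a median of -0.13 against -0.01. When libraries were rescaled to the same FPKM sum, 6 of the 9 were higher and 3 lower at 8 h (median 0.10). At 16 h that scale gave 3 higher and 6 lower (median -0.04). Rescaling to the same median gave 1 higher and 8 lower at 16 h (median -0.15), and left 5 and 4 at 8 h. At 16 h CBX2 (0.01) and CBX8 (-0.01) had hardly changed as deposited. In a bulk library, fewer cells that express a gene and less RNA of it per cell cannot be told apart.

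**Figure D3:**
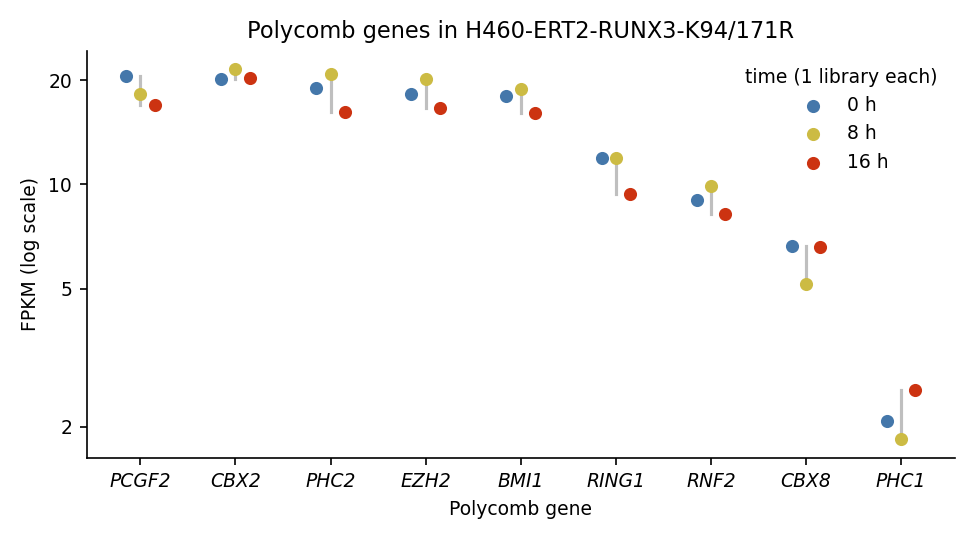
FPKM on a log scale (vertical axis) of the 9 Polycomb genes (horizontal axis, ordered by level at 0 h) in K94/171R cells at 0 h (blue), 8 h (yellow) and 16 h (red), 1 library per point, with a grey line from the lowest to the highest. PCGF2, CBX2, PHC2, EZH2 and BMI1 lie together between 16.1 and 21.5 FPKM, RING1 and RNF2 between 8.24 and 11.9, CBX8 below them, and PHC1 lowest at 1.84 to 2.55.

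RNF2 (hg19, chr1:185014658-185071735, plus strand) had 9.0, 9.93 and 8.24 FPKM at 0, 8 and 16 h in K94/171R cells, a change of 0.14 and then -0.13. Its 8 h library was the highest and its 16 h library the lowest, and 68.2% and 64.5% of all genes changed by at least as much. RING1 (chr6:33176277-33180499, plus strand), the other ligase, had 11.9, 11.9 and 9.37 FPKM and was lower by -0.35 at 16 h, the largest decrease among the 9 at that time. RING1 was above RNF2 at each time, although their ranges overlapped. RNF2 made up 43.0%, 45.6% and 46.8% of the summed FPKM of the pair, and the sum was 20.9, 21.8 and 17.6 FPKM.

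BMI1 and PCGF2 had levels above those of both ligases at each time, on the per-kilobase scale of FPKM. BMI1 (chr10:22610028-22620413, plus strand), known as a repressor of the INK4 locus, had 18.0, 18.8 and 16.1 FPKM, the smallest changes of the PCGF pair at 0.06 and -0.16. PCGF2 (chr17:36890151-36906070, minus strand), its close paralogue, had 20.5, 18.3 and 16.9 FPKM and was lower at each later time, by -0.16 and -0.28. Over the 6 PCGF genes, BMI1 held 23.4% to 24.3% and PCGF2 23.3% to 26.5% of the summed FPKM. PCGF1, the subunit of the BCOR-containing complex, had 14.4, 13.4 and 9.42 FPKM, or 18.7%, 17.1% and 14.2% of that sum. Its change of -0.61 at 16 h was the largest of the 8 RING and PCGF genes and past 1.5-fold. PCGF6 went the other way at 8 h, from 6.25 to 9.20 FPKM (0.55), and was back at 5.19 FPKM at 16 h.

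CBX2 and CBX8, readers of methylated histone H3, lie next to each other on chromosome 17 (chr17:77751947-77761782, plus strand, and chr17:77765931-77775482, minus strand) with their 3′ ends facing. CBX2 had 20.1, 21.5 and 20.3 FPKM, the narrowest range of the 9 relative to its mean. CBX8 had 6.65, 5.18 and 6.62 FPKM and was lowest at 8 h (-0.36), the largest change of the 9 at that time. The neighbours thus differed in level at each time and in the direction at 8 h. Among related readers, CBX6 had 15.9, 18.7 and 17.8 FPKM (0.23 and 0.16), between CBX8 and CBX2 at each time, and CBX7 was below 1 FPKM in all 3 libraries (0.985, 0.724 and 0.733).

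PHC2 (chr1:33789224-33896696, minus strand) was the main polyhomeotic gene, with 19.0, 20.9 and 16.2 FPKM and 70.0% to 75.2% of the summed FPKM of PHC1, PHC2 and PHC3. PHC1 (chr12:9066492-9094063, plus strand) was the lowest of the 9 members, with 2.08, 1.84 and 2.55 FPKM. It had the largest increase of the 9 at 16 h (0.29), while RING1, PCGF2 and PHC2 were lower by more than 0.2 on the log2 scale. SCML2, a relative of the fly gene Sex comb on midleg, had the largest change of the PHC and SCM list at 16 h, from 6.27 to 7.87 FPKM (0.33).

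**Figure D4:**
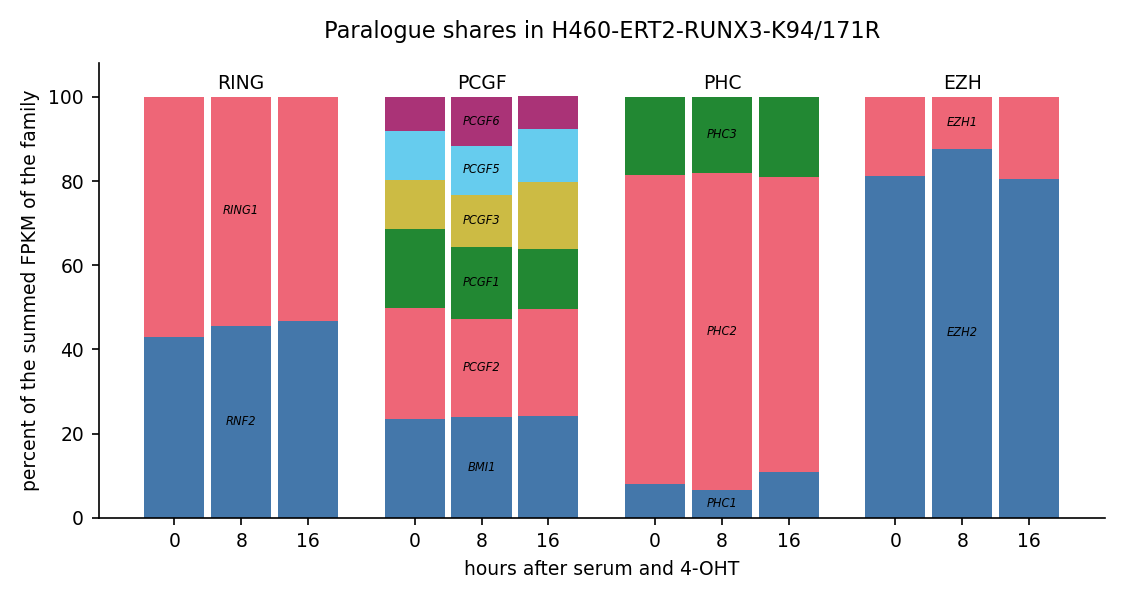
Percent of the summed FPKM of each gene family (vertical axis) in K94/171R cells at 0, 8 and 16 h (horizontal axis), stacked by gene, with genes named on the 8 h bar. RNF2 is at 43.0% to 46.8% of the RING pair, PHC2 and EZH2 make up most of their families at each time, and no gene exceeds 26.5% in the PCGF bars.

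EZH2 (chr7:148504349-148581413, minus strand), the methyltransferase of PRC2, had 18.2, 20.2 and 16.6 FPKM, higher at 8 h by 0.15 and lower at 16 h by -0.13. Of the other 8 members it was the closest to RNF2, at a distance of 0.011 over 3 libraries, followed by BMI1 at 0.058 and PHC2 at 0.082. Of the 10731 genes compared, 9 had a course closer to RNF2 than EZH2 had, and the nearest 3 were CALHM2, GSKIP and SETD1A, at 0.001 to 0.005. For EZH2 the nearest 3 were DNAJB2, NOP10 and SETD1A, at 0.001 to 0.006. These distances rest on 3 libraries and only describe them. EZH1, the paralogue of EZH2 known for resting cells, had 4.22, 2.87 and 4.06 FPKM, so EZH2 held 81.2%, 87.6% and 80.4% of their sum. EED, which binds the finished methyl mark, had 9.36, 12.7 and 10.4 FPKM (0.43 and 0.15), SUZ12 differed by at most 0.17, and RBBP4 had the largest change of this list at 16 h (56.6, 58.0 and 43.4 FPKM, -0.38).

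Ordered by their mean level over 3 libraries, the 9 members ran CBX2, PHC2, PCGF2, EZH2, BMI1, RING1, RNF2, CBX8 and PHC1. Among the first 5, the ranges of neighbours overlapped, although CBX2 (20.1 to 21.5 FPKM) and BMI1 (16.1 to 18.8) did not overlap each other. BMI1 and RING1 did not overlap, RING1 and RNF2 did, and RNF2, CBX8 and PHC1 were each apart from the next. The coefficient of variation over the 3 libraries was 3.53% for CBX2, 9.3% for RNF2 and 16.7% for PHC1. Pseudogene copies of RNF2, BMI1, EZH2 and PHC1 exist in the genome but are not in this table, so how the counting treated reads they share is not known. The readthrough gene COMMD3-BMI1, which contains BMI1, was listed at 2.52e-05 FPKM or less.

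The wider list held 54 genes of PRC1, PRC2 and their opponents, all of them found and 51 of them at 1 FPKM or more in K94/171R cells. None of the 51 was past 2-fold at either time, where 3.76% of all genes were at 8 h and 2.74% at 16 h. Past 1.5-fold were 2 at 8 h, L3MBTL2 (9.22 to 14.8 FPKM, 0.68) and KDM6A (6.20 to 4.05 FPKM, -0.61), and at 16 h PCGF1 alone. The shares of all genes past 1.5-fold were 14.4% at 8 h and 9.12% at 16 h. L3MBTL2 belongs to the variant PRC1 built on PCGF6, and KDM6A is a demethylase that removes the PRC2 mark. At 8 h 34 of the 51 were higher and 17 lower (median 0.11), where 50.8% of all genes were higher. This became 37 and 14 with the libraries at the same FPKM sum and 30 and 21 (median 0.06) at the same median. At 16 h 20 were higher and 31 lower (median -0.08), where 48.2% of all genes were higher. At the same FPKM sum this became 27 and 24 (median 0.01), and at the same median 18 and 33 (median -0.10).

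Of the genes of variant PRC1, 10 of 13 were above 0 at 8 h, with a median of 0.25, where 50.8% of all genes were above 0 with a median of 0.01. The count was the same on the other scales, with a median of 0.29 at the same FPKM sum and 0.20 at the same median. E2F6, a repressor of the E2F family, had 7.62, 10.8 and 7.01 FPKM (0.50 at 8 h), WDR5, a WD-repeat protein shared with MLL complexes, had 22.4, 31.7 and 20.1 (0.51), and USP7, a deubiquitinase, had 32.6, 43.4 and 32.7 (0.41). These 3 returned to near their starting level at 16 h, when the median of the 13 was -0.05. The gene with the largest change at 16 h was BCORL1 (3.93, 3.27 and 5.75 FPKM, 0.54). In the accessory proteins of PRC2 PHF1 (-0.55) and JARID2 (-0.52) were lowest at 8 h and returned at 16 h, when EPOP had the largest change (0.29), and EZHIP, an inhibitor of PRC2, was listed at 0 in all 3 libraries. Of the opponents, KDM6B had the largest change at 16 h (2.68, 3.01 and 3.95 FPKM, 0.55) and ASXL1, the partner of the H2A deubiquitinase BAP1, was lower at both times (34.8, 23.2 and 25.4 FPKM, -0.58 and -0.45).

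**Figure D5:**
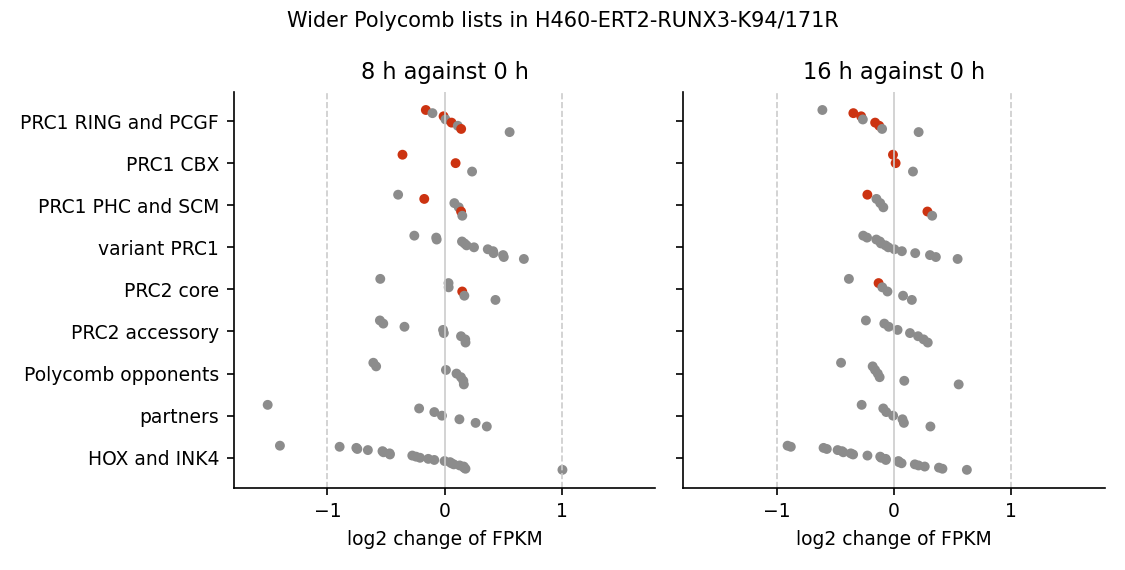
Log2 change of FPKM (horizontal axis) at 8 h (left) and 16 h (right) against 0 h in K94/171R cells for the genes of each list at 1 FPKM or more (vertical axis, ordered by change within a list), with the 9 members in red. Dashed lines mark 2-fold. All red points lie between -0.36 and 0.29, and the points beyond the dashed lines are RUNX3 and HOXA6, lower, and HOXD13, higher, at 8 h.

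Among the partners that the study places around RUNX3 and Polycomb, RUNX3 itself had 2.12, 0.712 and 2.11 FPKM in K94/171R cells, a change of -1.51 at 8 h and -0.01 at 16 h. It was the only one of the 7 past 2-fold, and how far the transgene adds to this value is not known. BRD2 had 44.8, 44.1 and 37.0 FPKM, lower by -0.28 at 16 h. CCND1 (cyclin D1) had 43.7, 47.7 and 46.3 FPKM, CDK4, its kinase, had 96.1, 123 and 91.9, and HDAC4, a histone deacetylase, had 7.49, 9.01 and 9.31, the largest change of the 7 at 16 h (0.31). The methyltransferase KMT2A had 5.07, 4.77 and 4.76 FPKM and its relative KMT2E 10.7, 9.16 and 11.2.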

How the data were processed

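RNA-seq was analysed in 9 libraries of 3 H460 lines at 0, 8 and 16 h, 1 per condition, from FPKM values per gene that the authors deposited in 2 separate tables. According to the study's methods and the submitters' processing notes, the TruSeq Stranded mRNA kit was used, and reads were trimmed with Cutadapt, mapped to hg19 with STAR 2.5.0 and quantified with Cufflinks and Cuffdiff 2.2.1. The gene annotation and the use of strand in counting are not given in the sources used here. FPKM keeps no read totals, so the depth is unknown. Steps between low values gave relative depths of 0.964 to 1.17 in the 6-library table and 0.986 to 1.00 in the K94/171R table, the last from 12 and 18 genes. How many fragments lie behind a low FPKM value is not known.

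Changes were computed within a table with a pseudocount of 0.05, which understates changes of low genes. Genes were called past 2-fold where FPKM was at least 1 in either library. Symbols matched 19494 identifiers in the K94/171R table and 1144 in the other. Coordinates of genes are GRCh37 (GENCODE), and promoters are RefSeq GRCh38.p14. No test was run. The script was tested on simulated data, and used Python 3.11.15, NumPy 2.4.6 and pandas 2.3.3. The text names all members, listed genes past 2-fold, the largest change per list at 16 h, the study's partners and the 3 nearest courses. Other genes named (PCGF6, CBX6, CBX7, EED, SUZ12, EZH1, E2F6, WDR5, USP7, L3MBTL2, KDM6A, PHF1, JARID2, ASXL1) were added after their values were seen. EZHIP, HOXB7, CDKN2A and CDKN2B are also named outside these rules. One gene was left out of the lists and is not reported here. The members and lists were chosen with earlier results of these data known. Alternatives were pseudocounts of 1 and 0.01, rescaling to the same FPKM sum or median, no filter, and thresholds of 1.5- and 4-fold.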

Additional observations from a re-analysis of the deposited data

How the results depend on the processing

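With 1 library per condition no replicate could be left out, and no error can be given. No paired analysis was possible because the groups have no replicate numbers to share. Under pseudocounts of 1 and 0.01 and rescaling to the same median, the change of each member, the member medians and the count of 0 members past 2-fold moved by less than 0.1 on the log2 scale or not at all, and so did those of K94/171R cells with the libraries at the same FPKM sum. On that last scale RNF2 in H460-ERT2-RUNX3 went from 0.32 to 0.14 at 8 h and from 0.78 to 0.28 at 16 h, and in H460-vec at 16 h from -0.03 to -0.13. In comparisons between the lines that were added after seeing the data, its difference at 16 h went from 1.13 to 0.84 with that scale and to 1.00 with a pseudocount of 1, and its change beyond that of H460-vec from 0.31 to 0.12 at 8 h and from 0.80 to 0.41 at 16 h. The median change of all genes was already between -0.011 and 0.02 as deposited, so rescaling to the same median could move little. A threshold of 1.5-fold or 4-fold left 0 members. The share of all genes past the threshold became, at 8 and 16 h with 1.5-fold, 14.4% and 9.12% in K94/171R, 8.2% and 11.9% in the control line, and 23.9% and 62.3% in the RUNX3 line. Without a filter on FPKM it was 7.31% and 6.47% in K94/171R, 5.07% and 5.99% in the control line, and 9.49% and 29.2% in the RUNX3 line, where the 16 h share was 41.5% with the filter.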

Other observations

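Genes that Polycomb complexes classically silence were described from a list of 39 HOX genes, the homeobox genes that set position along the body axis, with CDKN2A and CDKN2B, the INK4 locus. In K94/171R cells 21 of the HOX genes were at 1 FPKM or more in all 3 libraries and 6 were listed at 0 in all 3. Of all 19494 genes with a symbol in these cells, 10731 were at 1 FPKM or more in all 3 libraries, a share close to that of the 39 HOX genes. By cluster, 8 of 11 HOXA, 6 of 10 HOXB, 5 of 9 HOXC and 2 of 9 HOXD genes were at 1 FPKM or more throughout. CDKN2A and CDKN2B were listed at 0 in all 3 libraries. The study describes H460 cells as wild-type for ARF, a product of CDKN2A, and reports ARF protein in induced H460-ERT2-RUNX3 cells. Why both genes were listed at 0 here was not tested. An FPKM of 0 does not tell a silenced gene from one missing from the genome, so these values do not show silencing by Polycomb.

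Past 2-fold at 8 h were HOXA6 (3.87, 1.43 and 3.03 FPKM, -1.41) and HOXD13 (1.32, 2.70 and 1.77 FPKM, 1.01), 2 of 23 genes at 1 FPKM or more, where 3.76% of all genes were. At 16 h none was past 2-fold, and HOXA2 had the largest change (2.47, 1.45 and 1.30 FPKM, -0.91). The 23 genes had a median change of -0.21 at 8 h, with 8 higher and 15 lower. At 16 h their median was -0.11, with 9 higher and 14 lower. Of all genes, 50.8% were higher at 8 h (median 0.01) and 48.2% at 16 h (median -0.01). With the libraries at the same FPKM sum, 9 of the 23 were higher and 14 lower at 8 h (median -0.17). At 16 h that scale gave 11 and 12 (median -0.02). Rescaling to the same median gave 7 and 16 at 8 h, and 9 and 14 at 16 h. The HOXB7 level, the highest of the HOX genes at 0 h, was 17.5, 17.4 and 11.5 FPKM. HOX clusters hold overlapping and antisense genes, and since the use of strand in counting is not given, their reads may not be told apart.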
